A study of Sus scrofa with 24 samples.

Results

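CCK encodes the precursor of cholecystokinin, and it was followed here through scarred and spared heart muscle of pigs. It was read by 2 of the 43603 probes of a 1-colour Agilent pig array, which are the probes whose gene name in the scanner files, or whose transcript accession there, is CCK. The gene was picked because its signal was among the most strongly lowered in infarct core, so its infarct differences are given below as a description with no test. The arms were not part of that choice. The border zone against the normal region was not either, but it shares the normal region arrays with the infarct comparison and so is not independent of the choice. The spread of the infarct differences between pigs comes from the same values as the choice.

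Domestic pigs were given aspirin and clopidogrel by mouth before a closed-chest, reperfused heart infarct and every day afterwards. One month after the infarct they were randomized to injections through a catheter into the heart muscle. Pigs of the secretome arm received the substances released by apoptotic mononuclear blood cells, and pigs of the medium arm received the placebo medium, although the sample labels call the medium pigs not treated. Tissue was taken 1 month after the injection from the infarct core, from the border zone, which was the injected zone, and from a normal region remote from the scar. The 24 arrays came from 9 pigs: secretome infarct core (6 pigs), medium infarct core (3), secretome border zone (6), medium border zone (3), secretome normal region (4) and medium normal region (2). Pigs 11 to 16 belonged to the secretome arm and pigs 10, 18 and 40 to the medium arm, and pigs 12, 13 and 40 had no normal region array here.

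Cholecystokinin is best known as a gut hormone that is released by cells of the small intestine after a meal, contracts the gallbladder and makes the pancreas secrete enzymes. The same gene is one of the abundant neuropeptide genes of the brain, and its messenger and propeptide have been described in heart muscle cells of mammals. The precursor is cut by prohormone convertases or cathepsins, trimmed by carboxypeptidase E, sulfated on tyrosine and amidated at its end, and the mature peptides act on receptors that couple to Gq.

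Both CCK probes are printed here because every value below rests on them and because they read nearly the same stretch. Each is a 60-base oligo, and its first 30 bases are shown 5′ to 3′, with the bases that lie in both probes in capitals.
A_72_P496361: atggaagataaaatgtttcCCTCATCTGTG
A_72_P232347: CCTCATCTGTGACCCCTGGTGTGAAAGTGT
On the pig CCK transcript named in the scanner files the first probe spans bases 596 to 655 and the other spans bases 615 to 674, so that they share 41 bases and are not independent measurements. No genome build is given in the sources used here, and the scanner files list no chromosome position for either probe. Their signals had a Pearson r of 0.998 over the 24 arrays. A_72_P232347 was the brighter on average and is the probe used below. The log2 difference of the brighter probe minus the other was 0.07 to 0.24 on the 12 arrays of scan series 1 and -0.21 to -0.05 on the 12 arrays of scan series 2, where a scan series is one of the 2 sets of slides scanned at different times. Both probes stood well above background on all 24 arrays and were saturated on none.

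Across arrays, 61.5 to 75.7% of probes were well above background, with the lowest share on the border zone array of medium pig 40. Arrays of the 2 scan series stood apart: after removing group means, arrays of different pigs correlated at a mean r of 0.44 within a series and -0.45 between series, so arm differences are also given within each series. Series 1 held secretome pigs 12, 13 and 16 with medium pigs 18 and 40, and series 2 held secretome pigs 11, 14 and 15 with medium pig 10. The infarct core array of medium pig 40 stood apart as well, with a mean log2 level over 25 heart muscle genes of 1.32 against 5.10 to 7.64 on the other 8 infarct arrays. Of the genes that define heart muscle, MYH7, MYL2, TNNI3, ACTN2, ATP2A2 and MB were well above background on all 9 infarct core arrays, all 9 border zone arrays and all 6 normal region arrays. Heart muscle messenger was therefore present on every array, which does not check the region labels.

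CCK was bright in the normal region. Its processed signal, in the scanner's arbitrary units, ran from 67470 to 141041 on the 4 secretome arrays there and was 69360 and 138543 on the 2 medium arrays. Levels below are log2 of this signal over the array's 75th percentile of all probes, so 0 means a signal equal to that percentile.

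In infarct core CCK was lowest and most variable between pigs. The secretome arrays held 3.79 in pig 11, 5.01 in pig 12, 2.52 in pig 13, 3.13 in pig 14, 6.52 in pig 15 and 3.83 in pig 16. The medium arrays held 3.30 in pig 10, 3.92 in pig 18 and -0.01 in pig 40. Pig 15 was the high array and pig 40 the low one, and the arms overlapped.

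In the border zone the secretome arrays held 8.50, 6.78, 7.73, 8.36, 8.42 and 7.05 in pigs 11 to 16 in that order. The medium arrays held 7.42, 5.48 and 5.40 in pigs 10, 18 and 40. The lowest pair of border zone arrays came from the medium arm, and 4 of 6 secretome arrays lay above all 3 medium arrays.

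In the normal region the secretome arrays held 8.42 in pig 11, 7.91 in pig 14, 8.84 in pig 15 and 8.44 in pig 16, and the medium arrays held 9.0 in pig 10 and 7.35 in pig 18. All 4 secretome arrays lay between the 2 medium arrays.

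**Figure D1:**
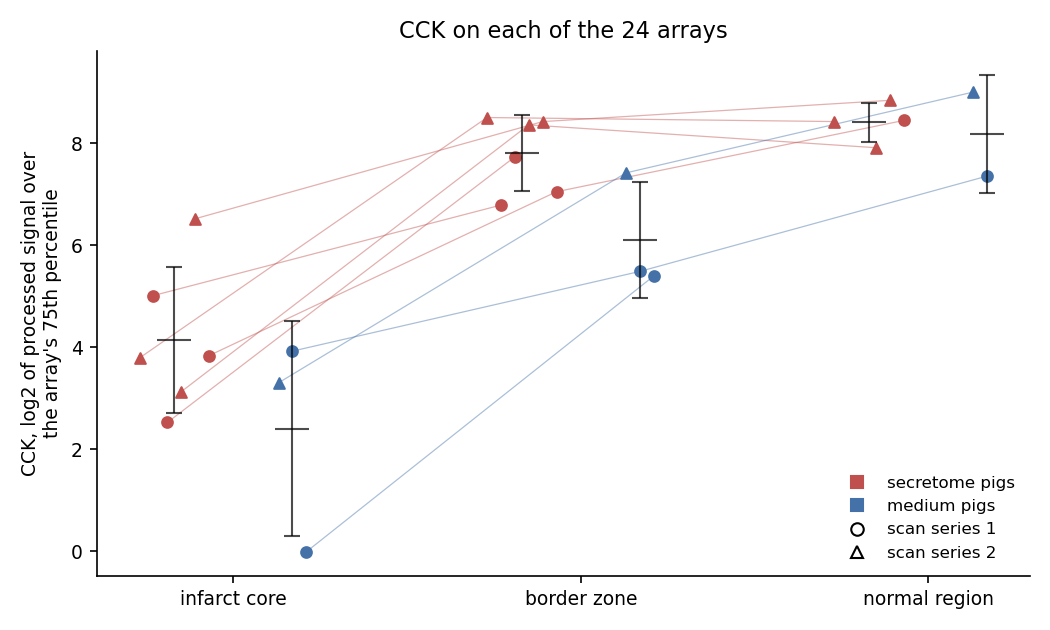
CCK on each array (vertical axis, log2 of processed signal over the array's 75th percentile) by region, secretome pigs in red left of medium pigs in blue. Thin lines join the arrays of a pig, the symbol gives the scan series, and black marks show group means with SD; infarct core arrays lie between -0.01 and 6.52, border zone arrays between 5.40 and 8.50 and normal region arrays between 7.35 and 9.0.

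With the arms joined, CCK averaged 3.56 ± 1.77 in infarct core (SD, n = 9), 7.24 ± 1.19 in the border zone (SD, n = 9) and 8.33 ± 0.61 in the normal region (SD, n = 6). The highest infarct core array, at 6.52, lay below the lowest normal region array, at 7.35. It lay above 2 of the 9 border zone arrays. The order of the regions was therefore infarct core, border zone, normal region from low to high, and border zone and normal region did not differ beyond their spread.

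A limma fit with a mean for each region and arm and the pig as a random block put CCK in infarct core at -4.67 ± 0.50 log2 relative to the normal region (SE), with a 95% interval of -5.70 to -3.63, or 25.4-fold lower. Across the 34360 probes tested, 53% passed an adjusted p under 0.05 in this comparison (Benjamini-Hochberg), with 27.6% of all probes passing as lower, and CCK was chosen on it. Among the 6240 genes with a named probe CCK had the lowest estimate, and FRMD5 was next at -3.48. The other CCK probe gave -4.70 ± 0.52. Against the border zone, CCK in infarct core was at -3.68 ± 0.43, or 12.9-fold lower, where 46.7% of probes passed and 23.6% passed as lower. It was again the lowest of the named genes, followed by COX8H at -3.16. In a tissue sample, fewer cells that make a messenger and less of that messenger in each cell cannot be told apart.

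Within single pigs the difference went the same way each time. In the 6 pigs with both arrays, CCK signal in infarct core was 4.03% of that in the normal region in secretome pig 11, 3.63% in pig 14, 20.0% in pig 15 and 4.09% in pig 16. It was 1.92% in medium pig 10 and 9.26% in medium pig 18. Pig 15 kept the largest share and pig 10 the smallest. Relative to the border zone of the same pig, CCK in infarct core was lower in 9 of 9 pigs, by log2 differences of -5.41 to -1.56.

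The border zone did not differ detectably from the normal region. The fit gave -0.98 ± 0.50 (SE; 95% interval -2.02 to 0.06; limma adjusted p = 0.379), and 160 of 34360 probes, 0.466%, passed in that comparison. In single pigs the log2 difference was 0.08 in pig 11, 0.45 in pig 14, -0.42 in pig 15 and -1.40 in pig 16 of the secretome arm. It was -1.59 in pig 10 and -1.87 in pig 18 of the medium arm. Both medium pigs and 2 of 4 secretome pigs had less CCK in the border zone. The secretome minus medium difference of these values was 1.41 (exact permutation p = 0.133, adjusted p = 0.311 over 7 comparisons), where the smallest p possible is 0.0667.

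ATP2A2, which encodes the calcium pump that refills the sarcoplasmic reticulum of heart muscle cells, is the muscle gene CCK was set against. It averaged 4.27 ± 1.26 in infarct core (SD, n = 9), 6.29 ± 0.84 in the border zone (n = 9) and 6.98 ± 0.37 in the normal region (n = 6), on the same log2 scale. In infarct core relative to the normal region ATP2A2 fell by 2.60 ± 0.36 log2 (SE; limma adjusted p = 5.98e-06). Its 20 probes did not all behave alike: their estimates had a median of -2.61 and ran from -2.85 to 0.10, and the brightest probe was used.

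CCK changed more than ATP2A2 in every pig. ATP2A2 signal in infarct core was 30.9% of that in the normal region in secretome pig 11, 12.0% in pig 14, 62.3% in pig 15 and 12.7% in pig 16, and 13.9% in medium pig 10 and 20.4% in medium pig 18. Subtracting the ATP2A2 difference from the CCK difference left -2.94 to -1.14 log2 over those 6 pigs. Relative to the border zone it left -2.90 to -0.50 over 9 pigs. In a straight line through all 24 arrays CCK moved 1.61 log2 units for each log2 unit of ATP2A2.

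The same held beside the other heart muscle genes. This is a description, since CCK was chosen for its fall in infarct core. That choice favours a lower place for CCK both here and beside ATP2A2. Each gene was read from its brightest probe. In each of the 6 pigs, the CCK difference between infarct core and normal region was lower than that of all 25 measured heart muscle genes. Their median difference within a pig ran from -2.19 to -0.31. Relative to the border zone none of the 25 fell below CCK in 8 pigs, while 17 of 25 did in medium pig 40, whose muscle median was -6.13 beside -5.41 for CCK.

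**Figure D2:**
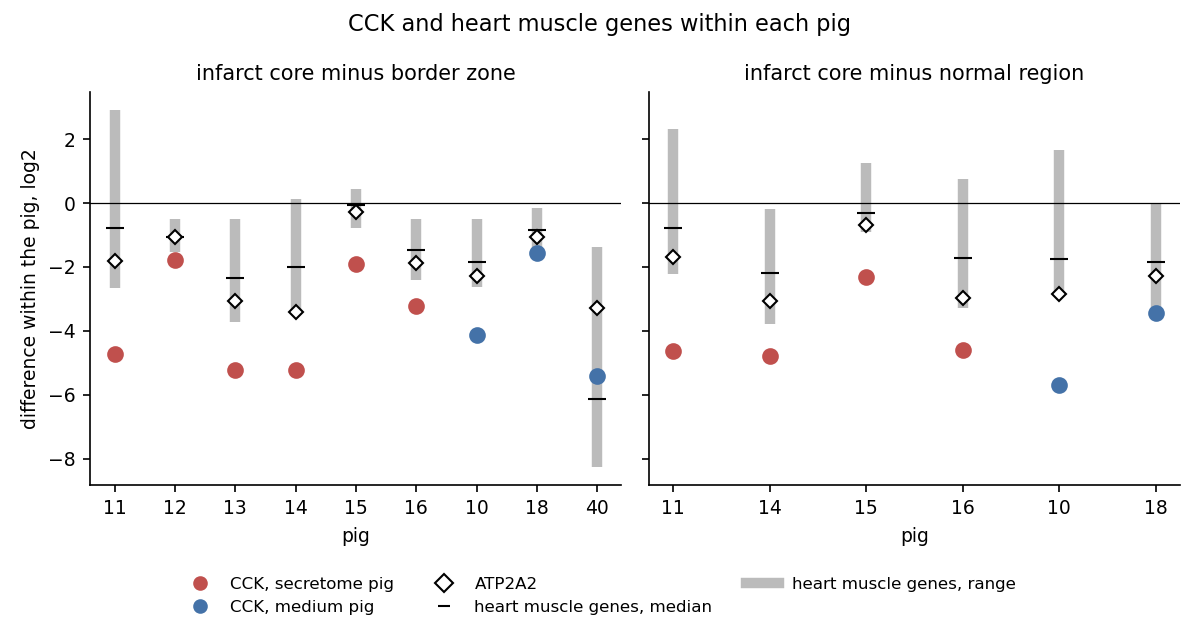
Difference within each pig in log2 (vertical axis) for CCK (filled circles, secretome pigs in red left of medium pigs in blue), ATP2A2 (open diamonds) and 25 heart muscle genes (grey bar, range; black dash, median). CCK lies below the whole grey bar in all 6 pigs against the normal region and in 8 of 9 against the border zone. In pig 40 it lies inside the bar. CCK was chosen for its fall in infarct core, so its low place is a description.

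Of the 25 measured heart muscle genes, 23 fell in infarct core relative to the normal region and none rose (limma, adjusted p under 0.05), with a median of -2.18 log2 beside -0.05 over all probes. Over all 6240 named genes, each read in the same way, 58.3% passed in this comparison, 27.4% as higher and 30.8% as lower. MYOM2, a protein of the sarcomere's M-band, fell by 3.26 ± 0.55 and MB, the oxygen store myoglobin, fell by 3.0 ± 0.54. PLN, the small protein that restrains the calcium pump, fell by 2.55 ± 0.47, and RYR2, the calcium release channel, fell by 2.54 ± 0.47. SLC8A1, the sodium-calcium exchanger, fell by 1.33 ± 0.19 and COX7A1, the muscle form of a cytochrome oxidase subunit, fell by 2.48 ± 0.41. ACTN2, the actin anchor of the Z-disc, fell by 2.30 ± 0.52 and CKM, the muscle creatine kinase, fell by 2.06 ± 0.49. MYH7, the slow myosin heavy chain, fell by 1.13 ± 0.39 and TNNI3, cardiac troponin I, fell by 1.48 ± 0.42. These values are from the brightest probe, and other probes of some genes fell further. Estimates ran from -2.59 to -1.13 over 8 MYH7 probes, -2.23 to -1.34 over 7 TNNI3 probes and -3.18 to -2.06 over 10 CKM probes. The MYH7 call was lost under 6 of 22 alternative settings, the TNNI3 call under 2 (adjusted p up to 0.0695) and the ACTN2 call under 1 (0.0531). The list was drawn up with earlier results of these data known, as were all lists below.

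**Figure D3:**
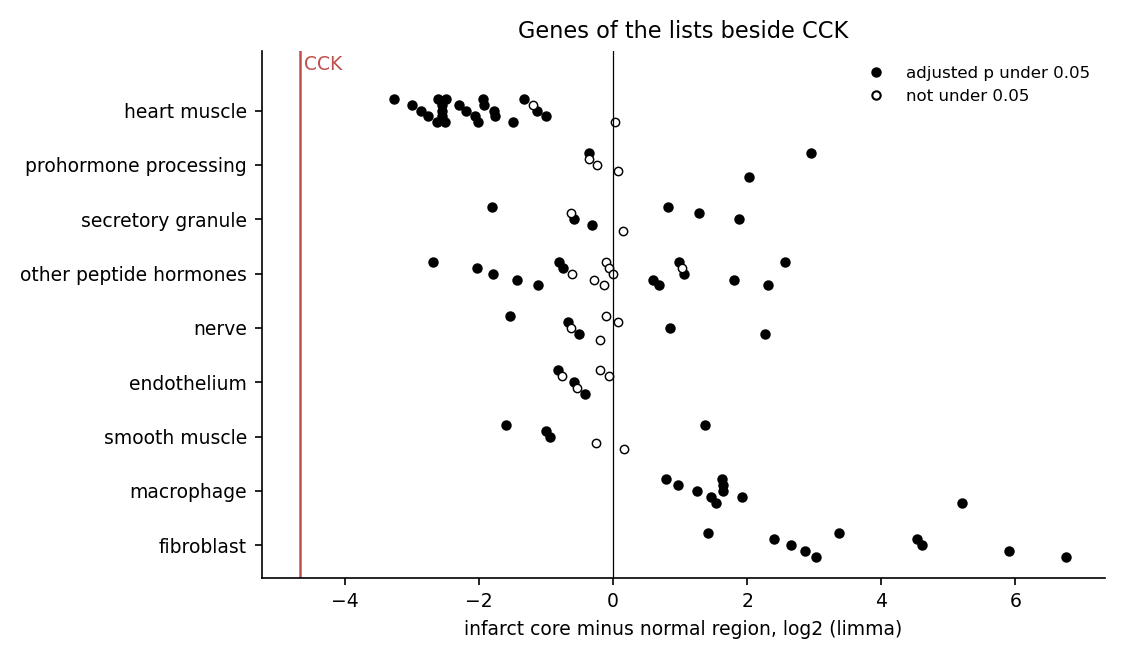
Infarct core minus normal region in log2 (horizontal axis, limma estimate) for the measured genes of 9 lists; filled points passed an adjusted p under 0.05, open points did not, and the red line marks CCK at -4.67. No gene of these lists lies below CCK; 23 of 25 heart muscle genes fell, and all 10 fibroblast and all 10 macrophage genes rose.

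Pigs with less ATP2A2 in a region also had less CCK there. Over the 9 infarct core arrays Pearson r was 0.946 (exact permutation p = 0.00118, adjusted p = 0.00472) and Spearman rho 0.733 (exact permutation p = 0.0311, adjusted p = 0.0415). Without the 2 arrays farthest from the median of ATP2A2, which leaves 7, r was 0.640, and without pig 40 it was 0.876. Over the 9 border zone arrays r was 0.944 (exact permutation p = 0.000402, adjusted p = 0.00322) and rho 0.883 (exact permutation p = 0.00308, adjusted p = 0.0246), with r at 0.808 without the 2 farthest. Adjusted values cover the 8 relations computed. The permutations ran across both scan series and both arms and take no account of series or arm. Border zone means differed between series 1 and series 2, at 6.49 and 8.17 for CCK and 5.72 and 6.99 for ATP2A2.

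The relation differed between the scan series in the border zone. In infarct core r was 0.994 over the 5 arrays of series 1 and 0.954 over the 4 of series 2. In the border zone it was 0.998 over 5 arrays and 0.208 over 4, so the relation there was not seen within series 2, and each of these rests on too few arrays for a test.

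**Figure D4:**
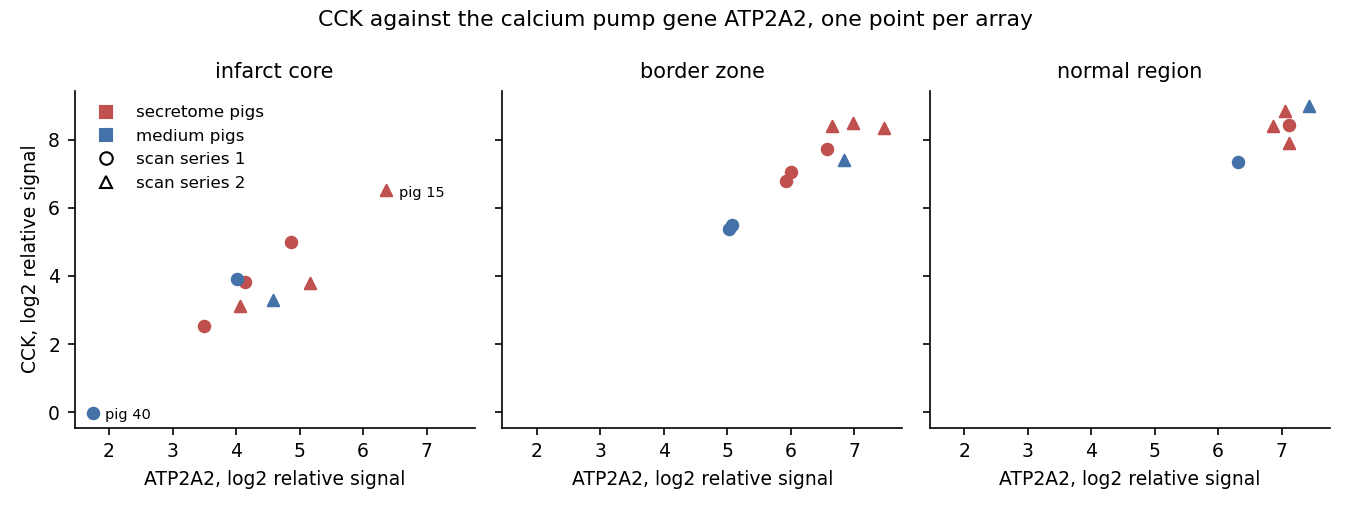
CCK (vertical axis) against ATP2A2 (horizontal axis), both as log2 relative signal, 1 point per array and 1 panel per region; colour gives the arm and shape the scan series. Infarct core arrays spread from pig 40, lowest on both axes, to pig 15, highest on both, while normal region arrays cluster at the top right.

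Markers of the scar ran the other way, apart from macrophage genes in infarct core. In the border zone CCK and the mean log2 level of 10 macrophage genes had r = -0.765 (exact permutation p = 0.0202, adjusted p = 0.0323) and rho -0.783 (exact permutation p = 0.0172, adjusted p = 0.0415), with r at -0.777 without the 2 farthest arrays and -0.850 and -0.740 within series 1 and series 2. For the mean of 10 fibroblast genes r was -0.629 (exact permutation p = 0.0617, adjusted p = 0.0823) and rho -0.75 (exact permutation p = 0.0255, adjusted p = 0.0415). In infarct core fibroblast genes gave r = -0.602 (exact permutation p = 0.0823, adjusted p = 0.0941) and rho -0.733 (exact permutation p = 0.0311, adjusted p = 0.0415). There r was -0.792 without pig 40 and -0.403 without the 2 farthest arrays. Macrophage genes in infarct core gave r = -0.337 (exact permutation p = 0.377) and rho -0.183 (exact permutation p = 0.644). That r turned to 0.158 without pig 40 and to 0.154 without the 2 farthest arrays. Within series 1 and series 2 it was -0.764 and 0.083, so its direction was not stable. The mean of the 25 heart muscle genes followed CCK with r = 0.878 in infarct core (exact permutation p = 0.0048, adjusted p = 0.0096), but r was 0.333 without the 2 farthest arrays, so that relation rests on them. In the border zone it was 0.843 (exact permutation p = 0.004, adjusted p = 0.0096), 0.657 and 0.070 within the 2 series. All these permutations again take no account of series or arm. In the border zone secretome and medium arrays did not overlap on the macrophage mean, and CCK averaged 7.81 and 6.10 in them. The relations within each arm were not computed.

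The genes most like CCK over all 24 arrays, by Pearson r of their brightest probe, were CAMK2D (0.976), ATP2A2 (0.974), DDO (0.971), CAST (0.969), ASB15 (0.965), PDHB (0.965), ACADL (0.964), DECR1 (0.964), NDUFS6 (0.964) and POLDIP2 (0.964). CAMK2D is the main calcium-dependent kinase of the heart, CAST is the inhibitor of calpain proteases and ASB15 is a muscle adaptor of ubiquitin ligases. PDHB, ACADL, DECR1 and NDUFS6 serve pyruvate oxidation, fatty acid oxidation and the respiratory chain of mitochondria. The arrays share regions and pigs, so these values are a description: the median r over 6239 genes was 0.115 and 233 genes exceeded 0.9. The median over the heart muscle list was 0.88.

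With the means of the 6 groups removed, the order was led by ATP2A2 (0.921), ART3 (0.920), GOT1 (0.902), ASB15 (0.898) and PRKAA2 (0.890), followed by CAMK2D (0.890), LPL (0.888), MYOM2 (0.881), CA14 (0.878) and DDO (0.878). GOT1 is the cytosolic aspartate aminotransferase, PRKAA2 a catalytic subunit of the energy sensor AMPK and LPL the lipase that frees fatty acids at vessel walls. Of the 10, 4 were also among the 10 of the first order. Within single series, 1 of these 10 recurred in series 1 and 0 in series 2. By r with the group means kept, ATP2A2 held rank 1 of 6239 within series 1 and rank 40 within series 2.

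The genes least like CCK over 24 arrays were DOK1 (-0.948), MBD2 (-0.940), PTBP3 (-0.938), TRIM38 (-0.936) and OSBPL10 (-0.936). DOK1 is an adaptor that dampens tyrosine kinase signals and MBD2 binds methylated DNA. They rose in infarct core relative to the normal region by 1.65 ± 0.17, 0.89 ± 0.12, 1.00 ± 0.13, 1.71 ± 0.20 and 1.72 ± 0.18 log2.

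Of the genes named with CCK at the bottom of the infarct comparison, FRMD5 fell by 3.48 ± 0.48, CDHR1 by 3.47 ± 0.46 and ASB15 by 3.45 ± 0.51. Their r with CCK over 24 arrays was 0.947, 0.912 and 0.965.

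The arms were compared with an exact permutation of the pigs' arms as well as with the fit. In the border zone CCK averaged 7.81 ± 0.75 in secretome pigs (SD, n = 6) and 6.10 ± 1.14 in medium pigs (SD, n = 3). The difference of 1.71 had a two-sided exact permutation p of 0.0476, and 0.167 after adjustment over the 7 CCK comparisons of arms, so it did not pass. The smallest p these 84 splits allow is 0.0119. In the fit it was 1.71 ± 0.91 (SE; 95% interval -0.18 to 3.6; limma adjusted p = 0.687); limma called 0 of 34360 probes there, 0%, with 2475 at an unadjusted p under 0.05. Within scan series 1 the difference was 1.75, and within series 2 it was 1.01, with the secretome pigs above the medium pigs in both. Without pig 18 it was 1.40, and without pig 40 it was 1.36 (exact permutation p = 0.107 each).

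In infarct core CCK averaged 4.13 ± 1.43 in secretome pigs (SD, n = 6) and 2.40 ± 2.12 in medium pigs (SD, n = 3). That difference of 1.73 (95% interval -0.16 to 3.62) had an exact permutation p of 0.238 and a limma adjusted p of 0.974, in a comparison where 5 probes, 0.0146%, were called. It rested on pig 40, since without that pig it was 0.52. Averaged over infarct core and border zone the difference was 1.72 ± 0.80 (SE; limma adjusted p = 0.809; exact permutation p = 0.0238, adjusted p = 0.167), with 5 of 6 secretome pigs above all 3 medium pigs. Without pig 40 it was 0.94. None of 34360 probes, 0%, was called by limma in that average, with 1876 at an unadjusted p under 0.05.

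In the normal region CCK averaged 8.40 ± 0.38 in secretome pigs (SD, n = 4) and 8.18 ± 1.16 in medium pigs (SD, n = 2), with an exact permutation p of 0.8. Its 15 splits cannot give a p below 0.0667. The fitted difference, which also draws on the other arrays of the pigs, was 0.62 ± 1.04 (SE; limma adjusted p = 1.0). Between the plain means the difference was 1.09 within series 1 and -0.61 within series 2, so the direction was not shared. No probe was called by limma, 0%, with 596 at an unadjusted p under 0.05.

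The loss of CCK in infarct core was not shown to differ between the arms. The secretome minus medium difference of infarct core minus border zone was 0.02 ± 0.86 (SE; 95% interval -1.78 to 1.82; limma adjusted p = 0.997). For infarct core minus normal region it was 1.11 ± 1.00 (95% interval -0.96 to 3.19; limma adjusted p = 1.0). Between the plain means of the within-pig differences it was 0.48 (exact permutation p = 0.733). It was -1.18 within series 1, which holds only pigs 16 and 18 here, and 1.79 within series 2, so the direction was not shared.

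Set against ATP2A2 on the same array, the brighter CCK probe did not overlap between the arms in the border zone, while the other CCK probe did. CCK minus ATP2A2 was 1.52 in pig 11, 0.85 in pig 12, 1.16 in pig 13, 0.89 in pig 14, 1.77 in pig 15 and 1.04 in pig 16 of the secretome arm. It was 0.57 in pig 10, 0.41 in pig 18 and 0.36 in pig 40 of the medium arm. With that probe all 6 secretome pigs lay above all 3 medium pigs. Limma called 0% of probes between the arms in this zone, which is another measure than overlap. The share of all genes whose arms do not overlap was not counted, so how rare such a separation is was not tested. With the other probe 5 of 6 secretome pigs lay above all 3 medium pigs, since secretome pig 12 lay at 0.69 and medium pig 10 at 0.73. The full separation therefore depends on the probe. Within each scan series the arms did not overlap with either probe.

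The means were 1.2 ± 0.37 in secretome pigs (SD, n = 6) and 0.45 ± 0.11 in medium pigs (SD, n = 3). That difference of 0.76 had an exact permutation p of 0.0238, and 0.167 after adjustment over 7 comparisons, so it did not pass either. With the other probe the difference was 0.80 (exact permutation p = 0.0595). The zero of this scale has no meaning, since the signals of different probes cannot be set against each other. ATP2A2 alone averaged 6.60 ± 0.58 in secretome pigs and 5.65 ± 1.03 in medium pigs in the border zone (SD, n = 6 and 3; exact permutation p = 0.119).

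Other readouts of the tissue were set beside it. In the border zone the mean of 10 macrophage genes ran from 1.39 to 2.49 on secretome arrays and from 2.50 to 2.87 on medium arrays. The arms did not overlap on that mean either, and they were not tested on it. The mean of 10 fibroblast genes ran from 0.69 to 3.98 on secretome arrays and from 3.51 to 4.14 on medium arrays (exact permutation p = 0.262). The mean of 25 heart muscle genes ran from 7.11 to 8.02 on secretome arrays and from 6.52 to 7.90 on medium arrays (exact permutation p = 0.333). Their part in the CCK values was not tested.

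**Figure D5:**
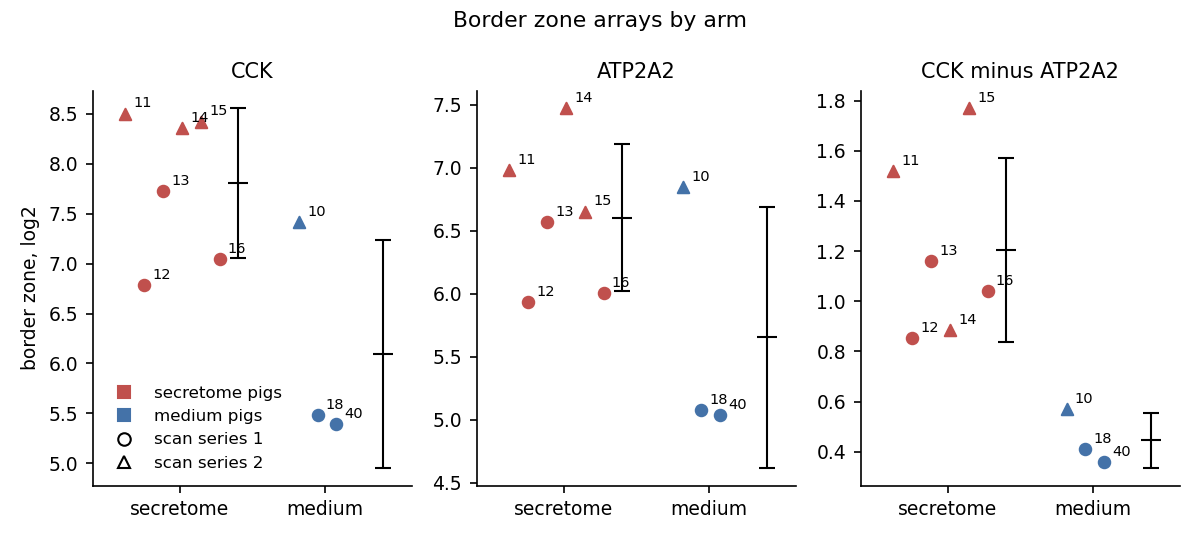
Border zone arrays, secretome pigs (red, left) and medium pigs (blue, right), for CCK, ATP2A2 (log2 relative signal) and CCK minus ATP2A2 (log2); numbers name pigs, shapes the scan series, and black marks beside the points give mean and SD. The arms overlap for CCK and for ATP2A2; for CCK minus ATP2A2 with the brighter probe, as drawn, secretome pigs lie at 0.85 to 1.77 and medium pigs at 0.36 to 0.57, but with the other CCK probe the arms overlap.

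Of 6 measured genes that mature peptide hormones, 2 rose, 1 fell and 3 did not pass in infarct core relative to the normal region, with a median of -0.08. This count and those of the following lists stand beside the 58.3% of all named genes that passed, 27.4% as higher and 30.8% as lower, and a share near these is not a result about a list. CTSH, the cysteine protease cathepsin H, rose by 2.96 ± 0.25 and CPE, the carboxypeptidase that trims basic ends, rose by 2.02 ± 0.29 log2 (limma adjusted p = 8.23e-08 and 9.41e-06). TPST2, a tyrosine sulfotransferase, fell by 0.36 ± 0.15 (adjusted p = 0.0426). PAM, the amidating enzyme, was at -0.23 ± 0.13 (adjusted p = 0.147), FURIN, a convertase of the secretory pathway, at -0.35 ± 0.20 (adjusted p = 0.135) and CPD, another carboxypeptidase, at 0.08 ± 0.15 (adjusted p = 0.709). GAST, which encodes the related hormone gastrin, was at -0.15 ± 0.16 (adjusted p = 0.461), and its other probe gave 0.38.

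Of 8 measured secretory granule genes 3 rose and 3 fell, a share near that of all named genes. SCG5, a granule chaperone of a convertase, rose by 1.88 ± 0.28, SCG3, a granin that helps form granules, by 1.29 ± 0.30 and RAB27A, a GTPase of granule docking, by 0.83 ± 0.22. RAB3A, a GTPase of regulated release, fell by 1.80 ± 0.25, CHGB by 0.59 ± 0.23 and CHGA by 0.31 ± 0.10. CHGA and CHGB are granins named after their values were seen, to complete the 3 that fell. The other CHGA probe gave -3.13, and estimates ran from -1.47 to 0.95 over 12 CHGB probes, so the CHGB direction depends on the probe. Among 8 peptidases able to cut small peptides, ANPEP, aminopeptidase N, rose by 4.0 ± 0.44, while DPP4 fell by 2.85 ± 0.35 and THOP1, a peptidase of the cell interior, fell by 0.39 ± 0.12.

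Of 10 measured genes below Gq-coupled receptors, 6 rose and 1 fell, with a median of 0.81. GNA14, a Gq-class alpha subunit, rose by 3.08 ± 0.31, GNAQ by 0.71 ± 0.13, and the regulators RGS2 and RGS4, which shorten G protein signals, by 1.43 ± 0.18 and 1.80 ± 0.28. Of 6 measured transcription factors known at the CCK promoter, 3 rose and 1 fell: FOS by 1.52 ± 0.57, USF1 by 0.65 ± 0.17 and SP3 by 0.62 ± 0.18 rose, and JUN fell by 0.97 ± 0.25. None of the listed genes other than CCK itself came within 1 log2 unit of the CCK estimate in infarct core.

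Of 21 measured genes of other peptide hormones, 7 rose and 7 fell in infarct core relative to the normal region, with a median of -0.11, beside 58.3% of all named genes that passed. CALCB, a calcitonin gene-related peptide, rose by 2.31 ± 0.32 and GDF15, a stress cytokine, by 1.81 ± 0.34, while MSTN, the muscle growth inhibitor myostatin, fell by 2.69 ± 0.42 and STC2, stanniocalcin 2, by 2.03 ± 0.31. MSTN and CALCB were dim: MSTN was well above background on 4 of 9 infarct core arrays and 6 of 6 normal region arrays, and CALCB on 9 of 9 and 3 of 6. NPPB, the B-type natriuretic peptide of strained heart muscle, rose by 2.57 ± 1.03 (limma adjusted p = 0.0405), a call lost under 10 of 21 alternative settings. NPPA, its atrial relative, was at 1.02 ± 0.88 (adjusted p = 0.344).

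Since CCK is also a gene of nerve cells, nerve markers were read beside it. The mean log2 level of 9 nerve genes was low, at -3.72 to -2.64 in infarct core, -3.52 to -2.83 in the border zone and -3.27 to -2.83 in the normal region. It joins genes that moved in opposite directions, so it does not show that nerve content was alike. Estimates for infarct core minus normal region ran from -0.19 to 4.41 over 12 STMN2 probes. SYT1 and NEFL were well above background on 3 of 6 normal region arrays, and CHAT on 6 of 9 infarct core arrays. UCHL1, a neuronal deubiquitinase, rose by 2.26 ± 0.40 and GAP43, a growth cone protein, by 0.86 ± 0.17. SYN1, a synaptic vesicle protein, fell by 1.53 ± 0.29, CHAT, the enzyme that makes acetylcholine, by 0.67 ± 0.24, and DBH by 0.50 ± 0.20, DBH being the noradrenaline enzyme and named after its value was seen to complete the 3 that fell. Among Schwann cell genes GFAP, a filament protein of glia, rose by 0.81 ± 0.21.

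Other heart muscle types showed smaller shifts in their brightest probes. Of 7 measured genes of atrial muscle 1 rose and 3 fell: NR2F2, an atrial identity factor, rose by 1.51 ± 0.17, while KCNA5, an atrial potassium channel, fell by 1.56 ± 0.25, STARD10 by 0.62 ± 0.21 and TBX5 by 0.40 ± 0.11. Of 5 measured conduction system genes KCNE1, a potassium channel subunit, fell by 1.45 ± 0.21 and no other passed. The other probe of the gene gave -2.18 for TBX5, -0.44 for KCNA5 and -0.35 for KCNE1.

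Genes of other cell types moved beside CCK in infarct core. All 10 measured fibroblast genes rose, with a median of 3.20, among them FN1, fibronectin, by 4.61 ± 0.40 and TNC, tenascin C, by 5.91 ± 0.58. All 10 measured macrophage genes rose, with a median of 1.59, among them LYZ, lysozyme, by 5.20 ± 0.43. Of 7 endothelium genes 3 fell and 4 did not pass, with CLDN5, a junction protein, falling by 0.82 ± 0.21. Of 6 smooth muscle genes, read from their brightest probes, 1 rose and 3 fell. CNN1 rose by 1.37 ± 0.31. SMTN, smoothelin, fell by 1.59 ± 0.34, ACTA2 by 0.94 ± 0.28 and DES, which is also in the heart muscle list, by 1.00 ± 0.40. Estimates ran from -0.94 to 2.64 over 7 ACTA2 probes and from -1.85 to -0.22 over 5 SMTN probes, so the ACTA2 direction depends on the probe. Of 7 adipocyte genes LPL and FABP4, a fatty acid carrier that vessels also express, fell by 2.47 ± 0.36 and 1.10 ± 0.25. How far these shifts in tissue makeup account for the CCK values was not tested.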

How the data were processed

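The members and lists were chosen with earlier results of these data known. RNA with an integrity number above 6, per the labels' protocols, was labelled with Cy3. Per the file headers, Feature Extraction 10.7.3.1 gave the deposited processed intensity, already background-corrected. The deposited series table holds the authors' log2 values, with scale and centring not given in the sources used here; limma 3.14.4 is named in the submitters' processing notes. Each column of that table matched its own array best (24 of 24), its column medians were 7.68 to 7.69, and it served as an alternative.

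Control spots were left out and spots of a probe averaged. Intensity was divided by the array's 75th percentile, log2 taken, and probes passing the scanner's well-above-background flag on 3 or more of the 24 arrays, 34360 of them, were tested with limma 3.58.1 (R 4.3.3; 18 residual degrees of freedom) with a mean per region and arm and pig as random block (correlation 0.548). Same-numbered arrays were taken as the same pig from the labels. Deviations of all 21 same-pig pairs correlated above 0.1 (mean r 0.583). So did 93 of 94 pairs of different pigs within a scan series (mean r 0.439), so this does not identify pigs. Benjamini-Hochberg adjustment covered all 34360 probes, with a threshold of 0.05. Arms were also permuted exactly over pigs (scipy 1.17.1). The fit was tested on simulated data.

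Matched through RefSeq accession, gene ID, gene name or description, 14283 of 43603 probes had 1 symbol, 39 several and 29281 none. A gene was read from its brightest kept probe. Genes named were CCK, ATP2A2, the 10 most like CCK by r over arrays and in deviations, the 5 least like, up to 4 members of each of 17 lists by smallest p between infarct core and normal region, all measured processing genes and a few muscle genes fixed by name. A few further list members were named after their values were seen. The 2 cholecystokinin receptor genes and list members without a named probe are not used here. The number of arrays limits the precision. Alternatives covered normalization, background correction, filter, block, scan series, probe and each pig left out. For CCK minus ATP2A2 in the border zone, alternatives other than the mean of the ATP2A2 probes were chosen after seeing the data.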

Additional observations from a re-analysis of the deposited data

Results flagged for a closer look

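Of 21 groups of 4 to 10 arrays or within-pig differences examined for a value far from the others, 2 held one, where chance gives about 1 in 20. The CCK difference between infarct core and normal region in secretome pig 15 was -2.32, and the nearest of the other 3 secretome pigs was at -4.61. The same pig had the smallest ATP2A2 difference, -0.68, and its heart muscle genes had a median difference of -0.31. For CCK minus ATP2A2, the same comparison in secretome pig 11 gave -2.94, with the nearest other pig at -1.73.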

How the results depend on the processing

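The infarct differences of CCK kept their direction under all 23 alternatives each: infarct core minus normal region ran from -5.26 to -4.11 and infarct core minus border zone from -4.22 to -3.19. Border zone minus normal region stayed short of the threshold (-1.41 to -0.74, adjusted p 0.232 to 0.999), as did every limma comparison of arms. Pig as a fixed replicate block changed no CCK call, and without any block MYH7 in infarct core minus border zone (-1.13) and NPPB in infarct core minus normal region (2.26) lost theirs. The arm difference of infarct core minus border zone turned to -0.0055 with normexp and quantile normalization, to -0.11 with slide as the block and to -0.97 without the infarct core array of pig 40, and ran from -0.83 to 1.09 when pigs were left out. The arm difference in the normal region was -0.61 within scan series 2. By exact permutation over pigs, leaving out each pig in turn gave CCK in the border zone 1.36 to 2.37 (p 0.0357 to 0.107) and CCK minus ATP2A2 0.65 to 0.83 (p 0.0179 to 0.0714). With the other CCK probe CCK minus ATP2A2 was 0.80 (p = 0.0595); with other normalizations and the authors' values it was 0.72 to 0.77 (p = 0.0119). Of the 10 genes most like CCK, 3 recurred in scan series 1, 0 in series 2 and 6 in the authors' values, which hold 7 of them. NPPA in infarct core minus border zone turned to -0.56 within series 1 and -0.11 without pig 10, and ran up to 1.69 with other arrays left out. NPPB there turned to -1.36 within series 1, -0.31 without pig 10, -0.18 without pig 11 and -0.16 without pig 18; it ran up to 1.66 with arrays left out and up to 2.86 over all alternatives. Calls over all lists numbered 101, and 69 to 102 under alternatives. The causes were not tested. Signal over background did not limit CCK, which was well above background on every array.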
